A study of Homo sapiens with 6 samples.

Results

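The HOX cluster genes were examined in RH36 cells after transfection of a precursor of miR-27a. They were taken as every array probe whose gene name is HOX followed by a cluster letter from A to D and a number, which gave 39 genes of 30484 gene names on the array, measured by 52 of its 41000 probes. The rule reads gene names and no measured values. RH36 is an established cell line of embryonal rhabdomyosarcoma, a childhood tumor with features of immature skeletal muscle, and the labels describe it as negative for the PAX3/FOXO1 translocation. All cells came from this single line. They were transfected for a short time with pre-miR-27a (3 arrays) or with a negative pre-control (3 arrays), each array being labelled a biological replicate. The labels give 10 nM of pre-miR-27a and 48 h for the pre-miR-27a arrays. They give neither value for the pre-control arrays, and the published methods name another concentration, reagent and time, so the exact exposure is not settled. The arrays were designed to identify transcripts that change, directly or indirectly, when miR-27a is raised.

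HOX genes encode homeodomain transcription factors that give cells their position along the body axis. In humans they lie in the clusters HOXA, HOXB, HOXC and HOXD, and members with the same number in different clusters, called paralogs, descend from the same ancestral gene. Low numbers sit toward the end of a cluster that is used in anterior structures, and high numbers toward the end used in posterior structures and distal limb. HOX proteins bind DNA together with PBX and MEIS cofactors, and Polycomb and Trithorax complexes keep the clusters silent or active. The HOXA probes lie on chromosome 7, apart from A_24_P914411, which is named HOXA10 but placed on chromosome 12. The HOXB probes lie on chromosome 17, the HOXC probes on chromosome 12 and the HOXD probes on chromosome 2. Probe positions are given in hg18, the build of the array files.

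A microRNA recognizes messenger RNAs mainly through its seed, bases 2 to 8. The mature form of the transfected microRNA is shown beside microRNAs encoded inside the HOX clusters, because those are known regulators of HOX messenger RNAs. The sequences are from RefSeq (GRCh38.p14), written 5′ to 3′ with the seed in capitals. miR-27a-3p is encoded outside the clusters, at chr19:13836447-13836467 on the minus strand. MIR196A1 lies between HOXB9 and HOXB13, MIR196A2 between HOXC10 and HOXC9, MIR196B between HOXA9 and HOXA10 (chr7:27169528-27169549, minus strand) and MIR10A between HOXB4 and HOXB5 (chr17:48579904-48579926, minus strand).
hsa-miR-27a-3p: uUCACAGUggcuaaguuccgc
hsa-miR-196a-5p: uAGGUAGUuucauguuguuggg
hsa-miR-196b-5p: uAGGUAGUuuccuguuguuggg
hsa-miR-10a-5p: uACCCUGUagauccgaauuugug
The miR-196 members share a seed with each other, and neither that seed nor the miR-10a seed is the miR-27a seed. Matches of the seed in HOX messenger RNAs were not analysed here.

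The labelled cell type was checked first. Of 10 skeletal muscle and rhabdomyosarcoma genes, 9 had a probe well above background on all 6 arrays, MYOD1, MYOG and DES among them, and MYF5 was not well above background on any. Some of these markers differed between the groups. Of their 13 tested probes 1 passed, where the test called 7.83% of all probes. CHRNA1 was higher by 1 of its probes (A_24_P393458, 0.95, limma adjusted p = 0.0216) and stood at -0.15 by the other. MYOG stood at -0.95 and -0.96 on its probes and MYOD1 at -0.45, all without overlap between groups, as were 32.5% of all probes. They did not pass without the replicate block (limma adjusted p 0.14, 0.092 and 0.0787) and passed with it (0.0334, 0.0334 and 0.0363). CDH15 (-0.35, without overlap) likewise passed only with the block (limma adjusted p 0.0561 without and 0.0457 with it). The block called 14.9% of all probes. Of 11 genes of blood, endothelium, epithelium and glia, 3 (CD3E, VWF and GFAP) had such a probe, and 1 CD3E probe fell (A_24_P86968, -0.44, limma adjusted p = 0.0348). On no array was PTPRC, PECAM1, EPCAM, CDH1 or KRT20 well above background. The 3 pre-control arrays shared a slide and the 3 pre-miR-27a arrays shared another, so a slide effect and the effect of transfection cannot be told apart. Local background had a median of 74.5 to 76 intensity units per pre-control array and 52.5 to 53 per pre-miR-27a array, and 1559 to 1750 spots per pre-control array against 3487 to 4153 per pre-miR-27a array were not found by the software. The part of the markers and of these array differences in the HOX results was not tested.

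RH36 cells had signal from many genes of every HOX cluster. A gene was counted as detected where at least 1 of its probes was well above background, a flag of the image software. Of the 39 HOX genes, 26 were detected on all 3 pre-control arrays, and 26 on all 6 arrays. The background was 67.2% of all gene names on the array, so the HOX genes as a whole were detected about as often as genes in general. Counted by probe, 37 of 52 HOX probes were well above background on the 3 pre-control arrays, against 68.3% of all probes. Another 4 genes were detected on some arrays and 9 on none. The clusters differed: 9 of 11 HOXA genes and 9 of 10 HOXB genes were detected on all pre-control arrays, against 4 of 9 HOXC genes and 4 of 9 HOXD genes. These are counts of genes in 1 cell line and were not tested.

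In HOXA, the genes well above background on all 6 arrays included HOXA2, HOXA3, HOXA4, HOXA5, HOXA7, HOXA9, HOXA10 and HOXA13, while HOXA6 was so on 1 array and HOXA11 on none. In HOXB, HOXB2 through HOXB9 without a gap, and HOXB13, were detected on all 6, and HOXB1 on none. In HOXC, the detected genes were HOXC8, HOXC9, HOXC10 and HOXC13, with HOXC4, HOXC11 and HOXC12 not detected on any array. In HOXD they were HOXD3, HOXD8, HOXD9 and HOXD13. HOXD1, HOXD4, HOXD11 and HOXD12 were not detected on any array, and HOXD10 was so only on pre-control replicate 2, where its log2 signal was 6.16 against 2.09 to 2.94 on the other 5 arrays. A probe below this mark has only an upper bound, and a dim signal does not show that the gene was silent.

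**Figure D1:**
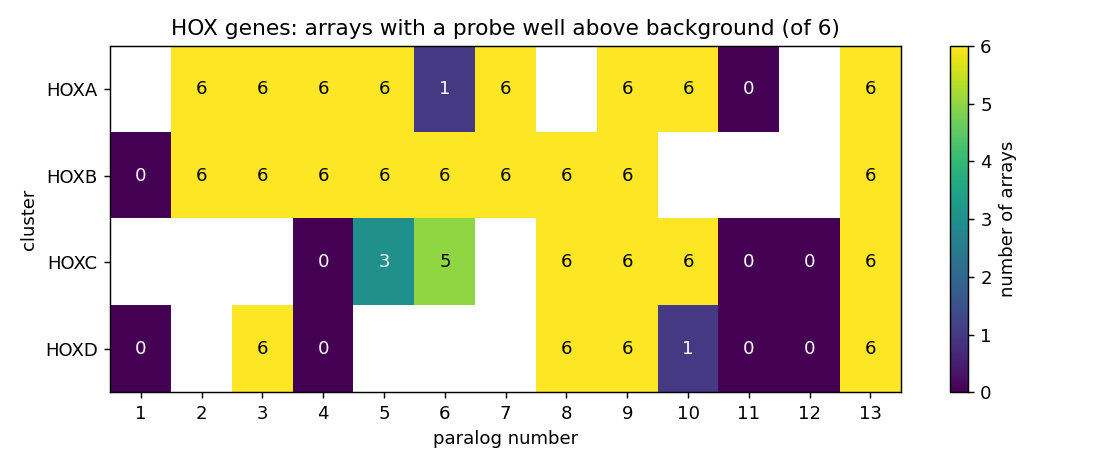
Number of arrays, of 6, on which each HOX gene had a probe well above background, by cluster (rows) and paralog number (columns); blank cells hold no gene or a gene that is not shown. Paralogs 9 and 13 were detected on all 6 arrays in every cluster, while the columns for 11 and 12 hold only 0.

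Read by paralog number, some groups were detected in full, some in part and others not at all. Every measured member of paralogs 2, 3, 7, 8, 9 and 13 was detected on all 6 arrays. None of the 3 members of paralog 11 or the 2 members of paralog 12 was detected on any, each read by 1 probe. Other groups, such as paralogs 4, 5, 6 and 10, were mixed. Each group holds few genes, and 67.2% of all gene names were detected on the pre-control arrays. A pattern by paralog number was not tested. The posterior end was therefore not uniformly dim: HOXA13, HOXB13, HOXC13 and HOXD13, which lie next to the paralog 11 or 12 positions in HOXA, HOXC and HOXD, were detected on all 6 arrays. HOXA13 read 9.77, 9.25 and 9.20 on the pre-control arrays (log2 signal, probe A_23_P389281), and HOXD13 read 9.18, 9.45 and 9.36. HOXA11 read 2.28, 2.92 and 2.13 on the same arrays, and HOXD11 2.09, 2.07 and 2.10, values not well above background. The more lenient of the software's flags, which asks for a positive signal that differs significantly from background, counted 29 genes, with HOXC5, HOXC6 and HOXD4 reaching it on all 6 arrays.

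After pre-miR-27a, few HOX genes passed the test. Differences are given throughout on the log2 scale as pre-miR-27a minus pre-control, each probe against itself. The 45 HOX probes (34 genes) found on at least 5 arrays were tested, where 88.9% of all probes met that requirement. Of these 45, 3 had an adjusted p below 0.05 in limma, HOXA7 and HOXC6 higher and HOXB13 lower. The same test called 7.83% of all 36469 probes (3.95% higher, 3.88% lower), and 6.67% of the HOX probes, a share near the background. The groups did not overlap for 5 HOX probes that were higher and 10 that were lower, 33.3% together, against 32.5% of all probes (14.8% higher, 17.8% lower). The differences ran from -0.56 to 0.85 with a median of 0.03, beside a median of -0.02 over all probes. Their median size was 0.19, against 0.21 over all probes, and the median standard error of a HOX difference was 0.13.

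By cluster, 9 of 13 HOXA probes and 6 of 10 HOXC probes were higher, 10 of 14 HOXB probes were lower, and the 8 HOXD probes split evenly. The cluster medians were 0.09, 0.10, -0.08 and 0 for HOXA, HOXC, HOXB and HOXD. Scaling each array to its 75th percentile, which moved the median of all probes from -0.02 to -0.09, gave 0.12 for HOXA, -0.12 for HOXB, -0.08 for HOXC and -0.15 for HOXD. With another background correction (normexp) the HOXC median was 0 and the HOXD median -0.09. With 1 array left out the HOXA median was 0.01 to 0.17, the lowest without pre-control replicate 2, and the HOXB median was -0.17 to 0.01, the highest without pre-miR-27a replicate 3, where 8 of 14 HOXB probes were higher. The HOXB, HOXC and HOXD medians therefore have no settled direction, and that of HOXA is not taken as settled either. The 13 HOXA probes include A_24_P914411, which is placed on chromosome 12 and is described below. That probe stood at 0.32 in the fit without pre-control replicate 2, where the HOXA median was 0.01.

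**Figure D2:**
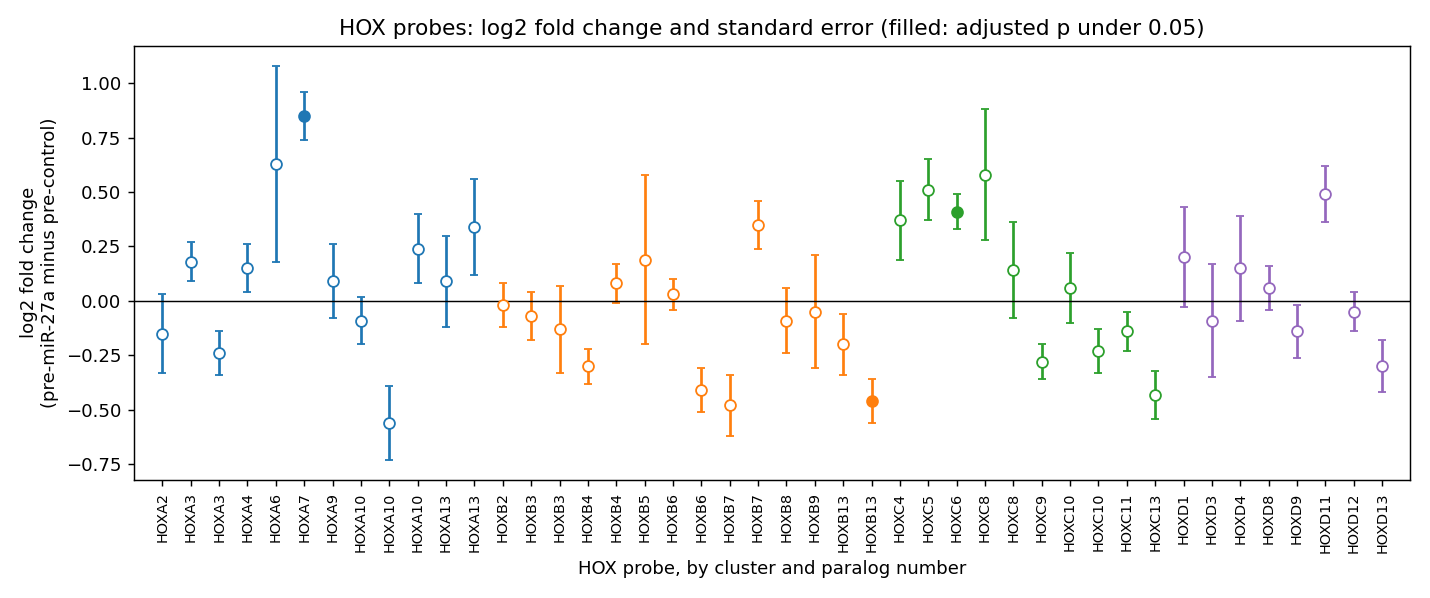
Difference between pre-miR-27a and pre-control (log2 scale, vertical axis) for 44 of the 45 HOX probes tested, ordered by cluster and paralog number; points are limma estimates, bars are standard errors (n = 3 arrays per group) and filled points have an adjusted p below 0.05. The 3 filled points are HOXA7 at 0.85, HOXC6 at 0.41 and HOXB13 at -0.46.

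HOXA7, a paralog 7 factor of the trunk, had the largest HOX difference. Its single probe (A_23_P70968, NM_006896, chromosome 7 from 27160956 to 27161015, minus strand) read 13.09, 12.76 and 12.78 on the pre-control arrays and 13.72, 13.78 and 13.67 on the pre-miR-27a arrays. All 3 pre-miR-27a values were above all 3 pre-control values. The means were 12.88 ± 0.18 and 13.72 ± 0.06 (SD, n = 3), a rise of 0.85 with a standard error of 0.11 (limma adjusted p = 0.0209). The rise was called in all 9 other limma settings, at 0.77 to 0.85 (adjusted p 0.00525 to 0.0348). It was not called by unpaired SAM at 1.9%. That test called 0 of the 39 HOX probes with a value on every array, and 421 of all 31717 such probes. The rise was 0.79 to 0.95 with 1 array left out. The call was kept without pre-control replicate 1 (adjusted p = 0.0424) and lost without any of the other 5 (adjusted p 0.0604 to 0.0818). Those 5 fits called 81 of all 36469 probes without pre-control replicate 3 and 0 in the other cases. The loss is therefore not particular to HOXA7, here or for the probes below.

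The HOX genes on either side of HOXA7 did not pass the test. HOXA6, at 0.63 with a standard error of 0.45, was well above background on 1 array only. HOXA9 read 7.45, 6.92 and 7.43 against 7.50, 7.22 and 7.33, a difference of 0.09 (limma adjusted p = 0.809) with overlapping groups. The probe of LOC285944, between those of HOXA6 and HOXA7 on the opposite strand (chromosome 7 from 27160010 to 27160069), was well above background on 0 pre-control and 3 pre-miR-27a arrays and was found on too few arrays to be tested. A transcript without a gene symbol, THC2679040, has its probe between those of HOXA7 and HOXA9 on the opposite strand (chromosome 7 from 27165047 to 27165106). It read 11.48, 11.64 and 11.55 on pre-control and 11.02, 10.99 and 11.05 on pre-miR-27a arrays, a fall with a difference of -0.53 (standard error 0.08, limma adjusted p = 0.0234). HOXB7, the other measured paralog 7 gene, had probes that went in opposite directions and is described with the discordant genes.

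In HOXC, the probes of HOXC4, HOXC5, HOXC6 and HOXC8 all had positive differences, and of these HOXC6 passed. With 75th percentile scaling HOXC4 turned to -0.25. HOXC6 (A_23_P2344, chromosome 12 from 52708833 to 52708892, plus strand) read 5.47, 5.36 and 5.36 on pre-control and 5.81, 5.89 and 5.72 on pre-miR-27a arrays. The groups did not overlap, and the means were 5.40 ± 0.06 and 5.81 ± 0.09 (SD, n = 3). The rise was 0.41 with a standard error of 0.08 (limma adjusted p = 0.0446). The probe was well above background on 2 of 3 pre-control arrays and on all 3 pre-miR-27a arrays. The call was lost with 75th percentile scaling (0.34, adjusted p = 0.0927), with normexp (0.29, adjusted p = 0.0962) and with a variance trend (adjusted p = 0.119), over a range of 0.0339 to 0.119 for the 9 settings. It was also lost without any 1 of the 6 arrays (0.37 to 0.46, adjusted p 0.0767 to 0.138). Such fits kept few or no calls over all probes, except without pre-control replicate 1.

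HOXC5 was detected on the 3 pre-miR-27a arrays and on no pre-control array. It read 4.48, 4.12 and 4.31 against 4.64, 4.99 and 4.83, without overlap, an estimated 1.43-fold rise. That estimate sets the pre-miR-27a mean against, on each pre-control array, the larger of the probe's own signal and the lowest signal well above background. Here the own signal was the larger throughout. The estimate therefore equals the measured difference of 0.51, which did not pass (limma adjusted p = 0.0857), and is not a lower bound. The difference was 0.38 with 75th percentile scaling, 0.06 with normexp and 0.42 without pre-control replicate 2. HOXC4, not well above background on any array, stood at 0.37 (limma adjusted p = 0.277).

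HOXC8 (A_23_P398476) read 7.29, 6.78 and 6.40 on pre-control replicates 1, 2 and 3 and 7.78, 7.45 and 7.00 on the pre-miR-27a arrays. The groups overlap, but each pre-miR-27a array was above the pre-control array of the same number. The difference was 0.58 with a standard error of 0.30 (limma adjusted p = 0.294), and the adjusted p was 0.0338 in the fit blocked by replicate. The second HOXC8 probe stood at 0.14 (limma adjusted p = 0.757, and 0.205 with the block). HOXC8 was not among the probes chosen by rule and is given here because the block changed its call, which was seen afterwards.

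Of the paralog 13 genes, HOXB13 was called lower by 1 of its probes, and HOXC13 only in the fit blocked by replicate. HOXB13, a marker of prostate and hindgut lineages, has 2 probes. The probe A_23_P4212 (chromosome 17 from 44158898 to 44158957) read 8.30, 8.31 and 8.48 on pre-control and 7.91, 7.81 and 8.01 on pre-miR-27a arrays. The groups did not overlap, and the fall of -0.46 (standard error 0.10) passed at a limma adjusted p of 0.0478. The other probe, A_24_P365015, lies 1755 bases away and read 10.86, 10.58 and 10.92 against 10.62, 10.39 and 10.76, a difference of -0.20 (limma adjusted p = 0.458) with overlapping groups. The mean of both probes gave -0.33 (adjusted p = 0.171), and 75th percentile scaling gave -0.41 for the called probe (adjusted p = 0.0937), over a range of 0.0337 to 0.171 for the 10 settings. Without any 1 of the 6 arrays the difference was -0.51 to -0.40 and the call was lost (adjusted p 0.0892 to 0.143). Few or no calls over all probes remained in these fits, except without pre-control replicate 1.

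HOXC13, a regulator of hair keratin genes, read 10.32, 10.62 and 10.47 on pre-control and 9.91, 10.13 and 10.09 on pre-miR-27a arrays, without overlap. Its difference was -0.43 with a standard error of 0.11, which did not pass without the block (limma adjusted p = 0.0827) and passed with it (adjusted p = 0.0363). HOXD13, required for digits, stood at -0.30 (limma adjusted p = 0.200) with overlapping groups, 9.18, 9.45 and 9.36 against 8.98, 9.21 and 8.92. HOXA13 stood at 0.09 and 0.34 on its probes, neither of which passed. The first of these was -0.04 without pre-miR-27a replicate 1, and the second was 0 with normexp. Differences between the paralogs were not tested.

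**Figure D3:**
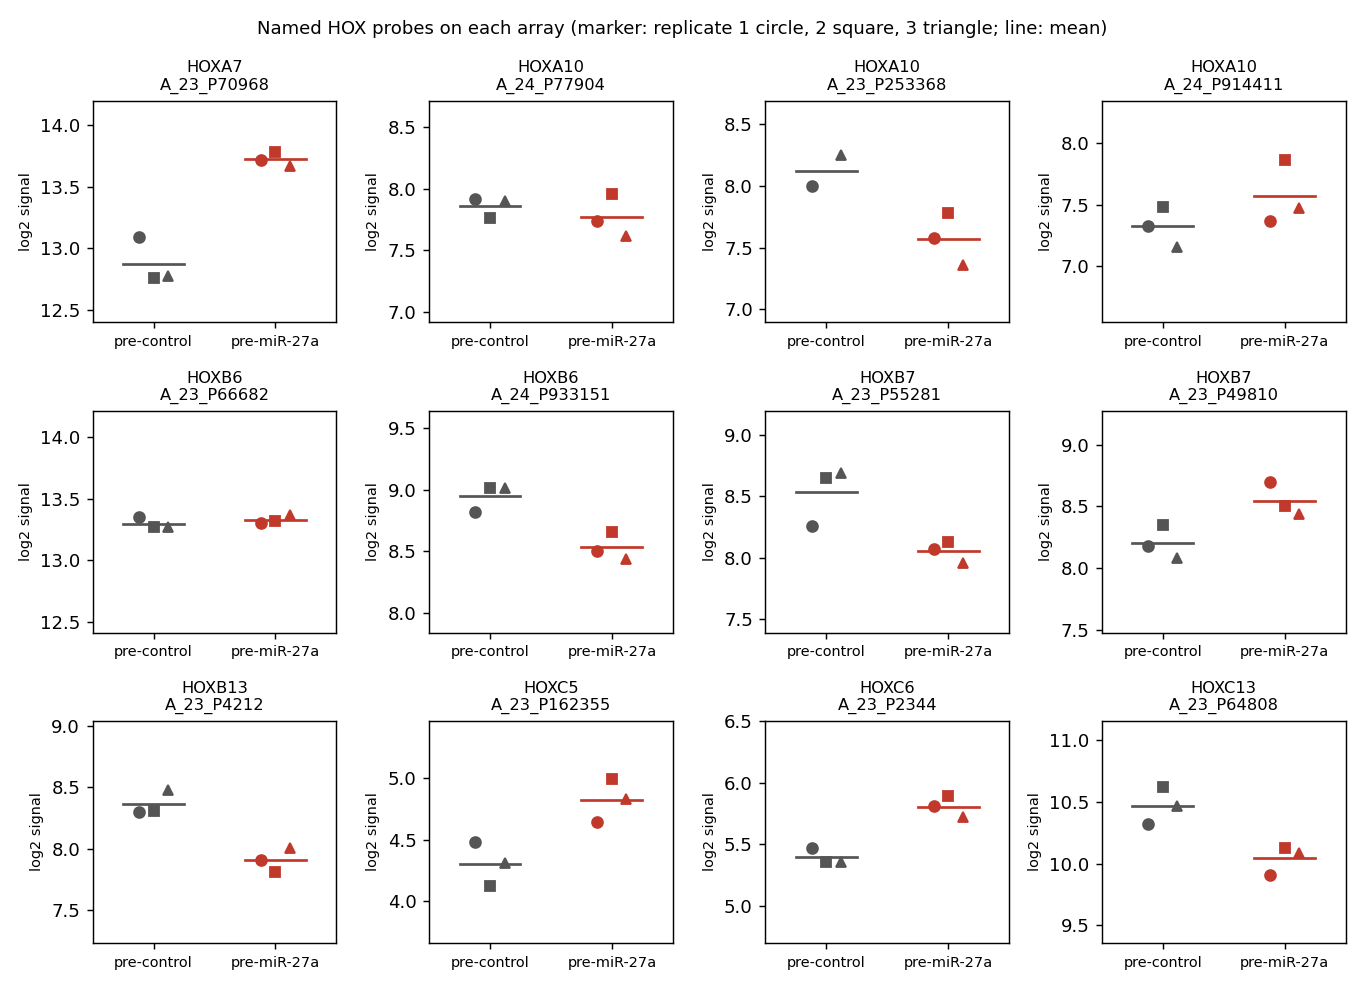
Log2 signal (vertical axis) of the HOX probes described by array, in pre-control (gray) and pre-miR-27a (red); each marker is 1 array, its shape gives the replicate number, the lines are group means and every panel spans the same number of log2 units. The pre-miR-27a arrays of HOXA7 lie between 13.67 and 13.78, above all pre-control arrays, while the panels of HOXB7 show probes that moved in opposite directions.

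Several HOX genes had probes that did not point the same way. Of the 10 genes with at least 2 tested probes, 6 had probes with opposite signs (HOXA3, HOXA10, HOXB4, HOXB6, HOXB7 and HOXC10). HOXA10 counts among these only through a probe placed outside HOXA, described below, and the positive probes of HOXB4 (0.08) and HOXC10 (0.06) turned to -0.02 and -0.05 with normexp. HOXB7, a trunk factor studied in several tumors, was the widest of these pairs on 1 chromosome. Its probe A_23_P55281 read 8.26, 8.65 and 8.69 on pre-control and 8.07, 8.13 and 7.96 on pre-miR-27a arrays, a difference of -0.48 (limma adjusted p = 0.0967). Its probe A_23_P49810, 3268 bases away, read 8.18, 8.35 and 8.08 against 8.70, 8.50 and 8.44, a difference of 0.35 (limma adjusted p = 0.133). Both sets of groups were free of overlap, in opposite directions, and neither difference passed. Leaving out pre-control replicate 1 brought the first probe to -0.62 (adjusted p = 0.0488), while leaving out each other array gave no call for it.

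HOXB6, the gene next to HOXB7, had a probe at 0.03 (A_23_P66682, limma adjusted p = 0.821) that read 13.35, 13.27 and 13.27 against 13.30, 13.32 and 13.37. Its probe A_24_P933151, designed to a homeodomain fragment, read 8.82, 9.01 and 9.01 against 8.50, 8.66 and 8.44. That difference was -0.41 (limma adjusted p = 0.0682) without overlap. The probes are 669 bases apart.

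HOXA10, a factor of the reproductive tract and limb, carries 3 probes. The probe A_24_P77904 read 7.92, 7.76 and 7.90 against 7.74, 7.96 and 7.62, a difference of -0.09 (limma adjusted p = 0.697). The probe A_23_P253368 had the lowest HOX difference, -0.56 with a standard error of 0.17, which did not pass (limma adjusted p = 0.131). It read 8.0 and 8.25 on pre-control replicates 1 and 3 and 7.58, 7.78 and 7.36 on the pre-miR-27a arrays, and its spot on pre-control replicate 2 was not found and stayed out of the fit. With normexp its adjusted p was 0.0480, the lowest of a range up to 0.764 over the settings. The third probe named HOXA10 (A_24_P914411) stood at 0.24 (7.33, 7.48 and 7.16 against 7.37, 7.86 and 7.47, limma adjusted p = 0.419). Its position is not in HOXA but on chromosome 12 from 52709820 to 52709879, close to the HOXC6 probe, and its description in the array file names a HOX C6 homeodomain fragment, so it may not measure HOXA10. Detection of HOXA10 does not rest on it, since both chromosome 7 probes reached that mark on all 6 arrays.

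Other HOX differences that did not pass but were free of overlap included HOXB4 (A_24_P416370), which read 11.73, 11.74 and 11.75 against 11.53, 11.44 and 11.36 (-0.30, limma adjusted p = 0.0768), and HOXC9, which read 12.53, 12.57 and 12.53 against 12.36, 12.24 and 12.20 (-0.28, limma adjusted p = 0.0935). Both were chosen after their values were seen. HOXB4 is known for expanding blood stem cells, and HOXC9 for marking thoracic identity. HOXD11 stood at 0.49 (limma adjusted p = 0.0745) from signals not well above background on any array, and with 75th percentile scaling at -0.19. HOXA2, HOXA4, HOXB2, HOXB3, HOXB8, HOXB9, HOXD3, HOXD8 and HOXD9, all detected, had differences between -0.15 and 0.15. HOXB5 stood at 0.19, HOXA3 at 0.18 and -0.24 on its probes, and HOXC10 at 0.06 and -0.23. The other tested genes, HOXC11, HOXD1, HOXD4 and HOXD12, were not detected on any array and stood between -0.14 and 0.20, and with 75th percentile scaling HOXC11 stood at -1.11 (limma adjusted p = 0.0294).

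The 7 HOX probes that were not tested were each found on 4 arrays. They were the only probes of HOXA5, HOXA11, HOXB1, HOXC12 and HOXD10 and 1 probe each of HOXB2 and HOXB3. HOXA5, a factor in lung and skeletal patterning, was well above background on all 6 arrays all the same, with 6.87, 7.33 and 6.94 on pre-control and 6.49, 7.30 and 6.64 on pre-miR-27a arrays. With no filter its difference was -0.24 (limma adjusted p = 0.630). With no filter none of the 7 passed, while 3 of the 52 HOX probes did.

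Between the HOX probes lie 23 other probes, mostly of noncoding or unnamed transcripts, and 15 of them were detected on all 6 arrays. Of the 21 tested, 2 passed, both lower, where 7.83% of all probes passed in either direction and 3.88% were called lower. These were THC2679040 in HOXA, given above, and LOC401022 in HOXD, between the probes of HOXD3 and HOXD1. The LOC401022 probe A_24_P307004 read 8.25, 8.50 and 8.44 on pre-control and 7.63, 7.73 and 7.75 on pre-miR-27a arrays, a difference of -0.69 (standard error 0.10, limma adjusted p = 0.0216). Its second probe varied from 2.08 to 8.11 among the pre-control arrays and gave no call (limma adjusted p = 0.80). PRAC, a prostate and large-bowel transcript next to HOXB13, read 11.81, 11.83 and 12.36 against 12.71, 12.81 and 13.27 (probe A_23_P15621). That difference of 0.93, without overlap, did not pass (limma adjusted p = 0.0619) and passed with the replicate block (adjusted p = 0.0334). Of the HOXB13 probes, A_23_P4212 was called lower and A_24_P365015 did not pass. The second PRAC probe, not well above background on any array, stood at -0.57 (limma adjusted p = 0.336).

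The cofactors of HOX proteins did not pass the test. The PBX, MEIS and PKNOX proteins help HOX proteins choose their sites. All 9 genes were well above background on all 6 arrays, and of their 16 probes 0 passed in limma, against 7.83% of all probes, and 0 with the replicate block, against 14.9%. None was called by SAM either, and 0 had an unadjusted p below 0.05, against 9037 of all 36469 probes. The median was -0.06, with a range of -0.22 to 0.30. The top of the range was MEIS2 (A_23_P88602), which read 8.67, 8.91 and 8.58 on pre-control and 9.02, 9.16 and 8.89 on pre-miR-27a arrays (limma adjusted p = 0.211), and its other probe stood at 0.02. The bottom was MEIS3, with 8.98, 9.11 and 9.02 against 8.73, 9.0 and 8.73 (limma adjusted p = 0.280).

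Of the genes that act on HOX clusters from outside, 24 were examined (Polycomb, Trithorax and related chromatin factors, CTCF and CDX), and 21 were detected on all 6 arrays. CBX2 and CDX4 were not well above background on any. Of 38 probes tested, 1 was higher and 1 lower, where the test called 7.83% of all probes, and the median was 0. SAM called 1 of these, the NSD1 probe described below, and not RING1. The lower was RING1, a Polycomb ubiquitin ligase subunit, which read 11.72, 11.75 and 11.85 on pre-control and 11.36, 11.41 and 11.37 on pre-miR-27a arrays. Its fall of -0.40 (standard error 0.07) had a limma adjusted p of 0.0383, and 0.0502 with 75th percentile scaling, over a range of 0.0230 to 0.0502 for the 9 settings. Without any 1 array the RING1 call was lost (adjusted p 0.0718 to 0.127), in fits that kept few or no calls over all probes except without pre-control replicate 1.

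The higher probe was 1 of 3 for NSD1, a histone methyltransferase. A_24_P8098 read 7.04, 6.49 and 6.77 on pre-control and 8.07, 8.01 and 7.80 on pre-miR-27a arrays, a difference of 1.19 (standard error 0.17, limma adjusted p = 0.0214). The other NSD1 probes stood at -0.02 and -0.04, and the mean of the 3 probes did not pass (0.38, adjusted p = 0.0565, the highest over 10 settings, whose lowest was 0.0053). The rise of this probe was called without pre-control replicate 1 (adjusted p = 0.0424). It was lost without any of the other 5 arrays, up to an adjusted p of 0.0852, in fits that kept few or no calls over all probes. With the replicate block 6 probes of these genes passed, RING1 and the NSD1 probe and also RNF2 (-0.41, adjusted p = 0.0434), CTCF (0.66, adjusted p = 0.0377), MLL (0.32, adjusted p = 0.0428) and CBX7 (0.34, adjusted p = 0.0410). Each of these 4 genes has a brighter probe that did not pass with the block, at -0.27 for RNF2, 0.12 for CTCF, -0.09 for MLL and 0.03 for CBX7. With the same block 14.9% of all probes passed.

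**Figure D4:**
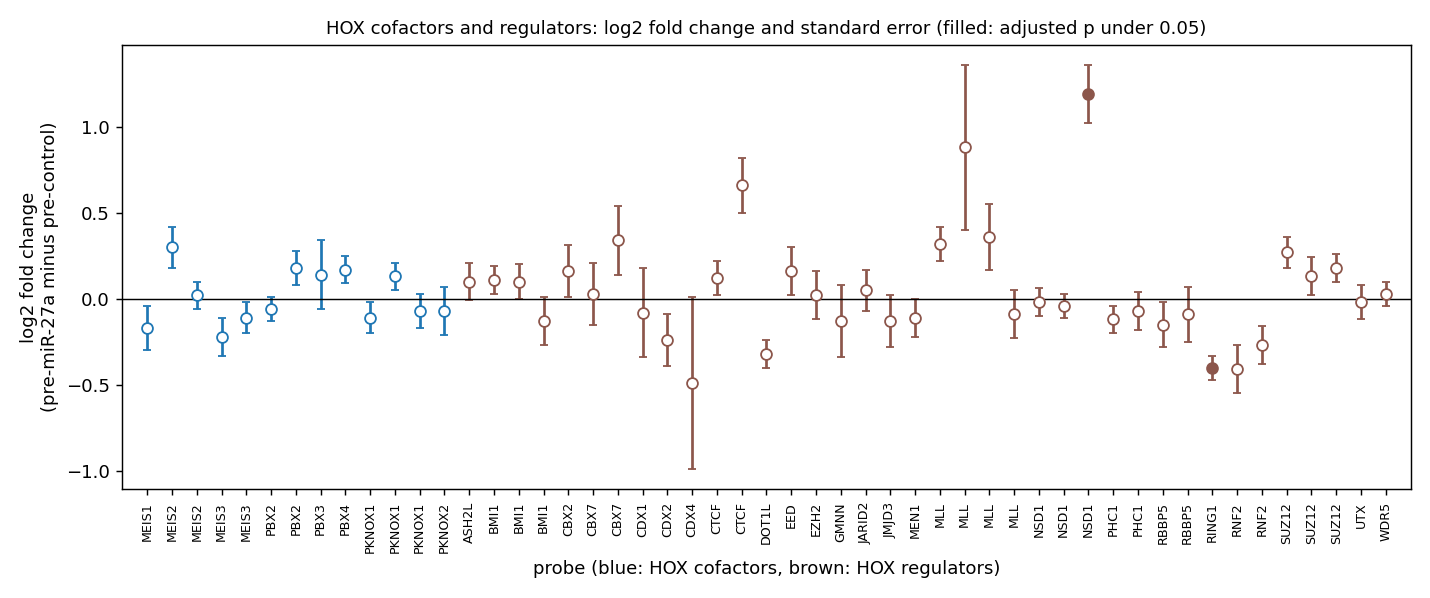
Difference between pre-miR-27a and pre-control (log2 scale, vertical axis) for tested probes of HOX cofactors (blue) and HOX regulators (brown); points are limma estimates, bars are standard errors (n = 3 arrays per group) and filled points have an adjusted p below 0.05. The filled points are NSD1 at 1.19 and RING1 at -0.40, and the cofactors shown stay between -0.22 and 0.30.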

How the data were processed

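Total RNA from RH36 cells (3 pre-control and 3 pre-miR-27a samples) was hybridized to Agilent 60-base arrays with 1 color. The authors deposited, for every spot, the intensity given by Feature Extraction 10.5.1.1, after its own background subtraction, with quality flags, and probe positions in hg18. The authors also deposited a table of quantile-normalized log2 values, whose columns had medians of 9.13 to 9.22 and differed from the values computed here by a median of 0.0028 to 0.0069. It is therefore on the log2 scale, not centered by gene. No per-sample column was unused (0).

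Here, control spots were left out, processed intensities were quantile normalized on the log2 scale, spots not found by the software were set to missing, spots of the same probe were averaged, and probes missing on more than 1 array were removed. The groups were compared over 36469 probes in R 4.3.3 with limma 3.58.1. Calls were made at a Benjamini-Hochberg adjusted p below 0.05. With 3 arrays per group an exact permutation test of 1 probe cannot go below p = 0.1. Precision is limited by the number of arrays, with a median standard error of 0.14 over all probes. A gene was called detected on an array where a probe of it carried the software's flag for well above background, which 69.9% to 78.0% of spots per array did. No spot was saturated (0).

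The replicate block pairs arrays by the replicate number in the labels. The sample titles do not say what arrays with the same number share. Deviations from the group mean correlated at 0.40, 0.46 and 0.41 for arrays with the same number (31717 probes), against -0.27 to -0.12 for different numbers. Over 39 HOX probes these were 0.6, 0.43 and 0.72, against -0.53 to -0.04. Deviations cancel within a group, so positive values for the same number force negative ones for different numbers. The negative values are therefore no separate sign of pairing. The replicate numbers are also the positions on the slide. The fit without a block is the main one. This choice matters, since probes of HOXC8, HOXC13, MYOG, MYOD1, CDH15 and PRAC, among others, passed only with the block. SAM was written out in R in its unpaired form, with 20 relabellings at a false discovery rate of 1.9%. The paper reports a paired SAM analysis, so the SAM counts here are not a repeat of it. Tests were run on simulated data with independent noise on each array, and with SAM at another false discovery rate. The simulation held no pairing and no slide difference, so it cannot show how the tests behave on these arrays. Values on every array are given for HOX probes that passed, for the 8 with the largest differences among those without overlap and well above background throughout at least 1 group, and for discordant probes of those genes. The HOX rule, the gene lists and these tests were chosen with earlier results of these data known. Positions within exons were not analysed here. The values of 1 HOX gene and 1 cofactor gene enter the counts and are not reported here.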

Additional observations from a re-analysis of the deposited data

How the results depend on the processing

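The 3 HOX calls of the main test became 5 with the replicate block, which added HOXC8 and HOXC13. Unpaired SAM at 1.9% called 0 of 39 complete HOX probes, against 421 of all 31717. Before adjustment, limma gave a p below 0.05 for 13 of the 45 HOX probes, against 9037 of all 36469 probes. Leaving out 1 array gave 0 to 2 HOX calls, with 10 to 13 unadjusted p values below 0.05, against 7178 to 8636 over all probes. The other 8 settings gave 2 or 3, HOXA7 among them each time; 75th percentile scaling called HOXC11 (-1.11, from signals not well above background), normexp the HOXA10 probe A_23_P253368 and a variance trend the HOXB4 probe A_24_P416370. For all probes, 2856 calls became 5421 with the block, 421 with SAM (411 higher, 10 lower) and 0 to 1276 without 1 array. These were 1276 without pre-control replicate 1, 81 without pre-control replicate 3 and 0 without each other array (7178 to 7686 unadjusted p values below 0.05). With 75th percentile scaling 1275 were higher and 1981 lower, against 1440 and 1416. The 2 cofactor and regulator calls became 6 with the block and 0 to 1 without 1 array. Of the other HOX, cofactor, regulator and cluster transcript calls named, the block changed only those given in the report with their blocked values. The HOX median stayed between -0.06 and 0.04. Over all 45 tested HOX probes, none of the 3 called differences changed sign in a limma setting, while 6 of the others did with 75th percentile scaling, 8 with normexp, 1 with no filter and 2 to 5 without 1 array. Among the probes described by array under the naming rule, apart from fits without 1 array, these were HOXA10 A_24_P77904 with normexp (0.02), HOXA10 A_24_P914411 as the mean of its gene's probes (-0.08), HOXB6 A_23_P66682 with 75th percentile scaling (-0.05) and as the mean of probes (-0.19), and HOXB7 A_23_P49810 as the mean of probes (-0.07). Detection on the pre-control arrays gave 26 genes, 26 to 27 without 1 of them, 28 on the pre-miR-27a arrays and 29 by the lenient flag. Dim probes limit what can be said of HOXC4, HOXC5, HOXC6 and paralogs 11 and 12. The cause of each change was not tested.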
